A study of Saccharomyces cerevisiae with 6 samples.

Results

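The small nuclear and small nucleolar RNA genes of the budding yeast Saccharomyces cerevisiae were followed on 6 expression arrays. They were taken as all genes whose symbol in the platform's gene table is SNR followed by digits, with or without a letter, and 60 of the 5656 measured genes met this rule. All 60 were matched by identifier to the RefSeq gene table of the R64 assembly, which classes 57 of them as small nucleolar RNA (snoRNA) and 3 as small nuclear RNA (snRNA). By family, 40 are box C/D snoRNAs, 17 are box H/ACA snoRNAs and 3 are spliceosomal RNAs. The same table lists 79 genes that meet the rule, and the other 19 are not analysed here, among them SNR10, SNR30 and SNR17B.

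The arrays compared a wild type strain (WT) with M1 and M8, a pair of mutants of Tra1 that the series calls Gal4 interaction defective (GID). Tra1 is a very large protein shared by the SAGA and NuA4 coactivator complexes, through which activators such as Gal4 recruit histone acetylation. All 3 groups grew in YPD, a rich medium with glucose, without treatment, and each group was measured on 2 arrays from total RNA of whole cells. For the residues altered in M1 and M8, the strain background and the presence of an intact TRA1 copy, the sources used here give nothing. The arrays of a group are labelled as duplicates, with no word on separate cultures, so every p-value rests on a spread between samples that may be technical.

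Box C/D snoRNAs are short guides that pair with ribosomal RNA and direct the methyltransferase Nop1 (fibrillarin) to methylate a ribose there. Box H/ACA snoRNAs fold into hairpins and direct the enzyme Cbf5 (dyskerin) to turn a uridine into pseudouridine. A few snoRNAs, such as U3 and U14, are needed for the cleavage of the ribosomal precursor, and the spliceosomal U1, U4 and U6 RNAs act in the removal of introns from messages. In yeast most snoRNAs have a gene and promoter of their own, some are cut from a shared transcript of several snoRNAs, and a few are released from the intron of a host gene. RNA polymerase II makes most of them, while polymerase III makes U6 and snR52.

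These RNAs carry no lasting poly(A) tail, and the labelling named in the labels, a 3' in vitro transcription kit, primes on poly(A). Whether the signals follow the abundance of the mature RNAs was not tested, and precursors or tailed decay intermediates may contribute. In RNA of a whole culture, fewer cells with a transcript and less of it per cell cannot be told apart. Lengths ran from 82 to 490 bases with a median of 97 in the box C/D genes, and from 182 to 386 with a median of 203 in the box H/ACA genes. Values are log2 levels, and the WT mean levels of the members ran from 3.27 for SNR190 to 10.81 for SNR77. The probe sets of SNR77, SNR61, SNR67, SNR72 and SNR13 were the brightest and those of SNR190, SNR32, SNR65, SNR78 and SNR79 the dimmest, which says nothing of abundance since probes differ. Of the 60 members, 8 were dimmer than the 25th percentile of all probe sets, and these are the ones called dim below. The 25th percentile over the measured genes lies higher, and more members fall under it.

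The duplicates of M1 differed more for these genes than those of the other groups, and this bears on every comparison with M1. M1 replicate 1 was lower than M1 replicate 2 for 54 of the 60 members (90% against 39.44% of all genes), with a median difference of -0.35. The median absolute difference between duplicates was 0.40 in M1, 0.18 in WT and 0.16 in M8 over the members, and 0.20, 0.13 and 0.089 over all genes. The members with the widest gap between the M1 arrays were SNR66, SNR68, SNR52, SNR48 and SNR45. SNR66, a methylation guide for the large subunit rRNA, had levels of 5.72 and 6.87 in M1, against 6.72 and 6.10 in WT and 6.34 and 6.12 in M8. The M1 arrays of SNR66 therefore lay on either side of all other arrays.

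The tRNA genes, whose RNAs also carry no lasting tail, stood on the same side of the other arrays as the members on each array but WT replicate 2, while the rRNA genes stood on the other side on WT replicate 1 and M8 replicate 2. The median of an array minus the mean of the other 5 arrays was -0.17 in M1 replicate 1 and 0.27 in M1 replicate 2 over the members, and -0.49 and 0.58 over 91 tRNA genes. Over the 4 rRNA genes M1 replicate 2 stood at 0.88 and M1 replicate 1 at -0.0037, while the WT arrays stood at -0.27 and -0.24 and the M8 arrays at -0.14 and 0.041. Protein-coding genes stood at 0.051 and -0.042 on these arrays. M1 replicate 1 lay below and M1 replicate 2 above both WT arrays for 22 of 60 members (36.67%), 82 of 91 tRNA genes (90.11%) and 9.441% of all genes. WT replicate 1 was the higher WT array, with a median of 0.16 over the members and 0.13 over tRNA genes, against -0.022 and 0.094 in WT replicate 2. The M8 arrays stood at -0.14 and -0.088 over the members and at -0.19 and -0.10 over tRNA genes. The part of tRNA-like signal, RNA quality or labelling in the values of the members was not tested.

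**Figure D1:**
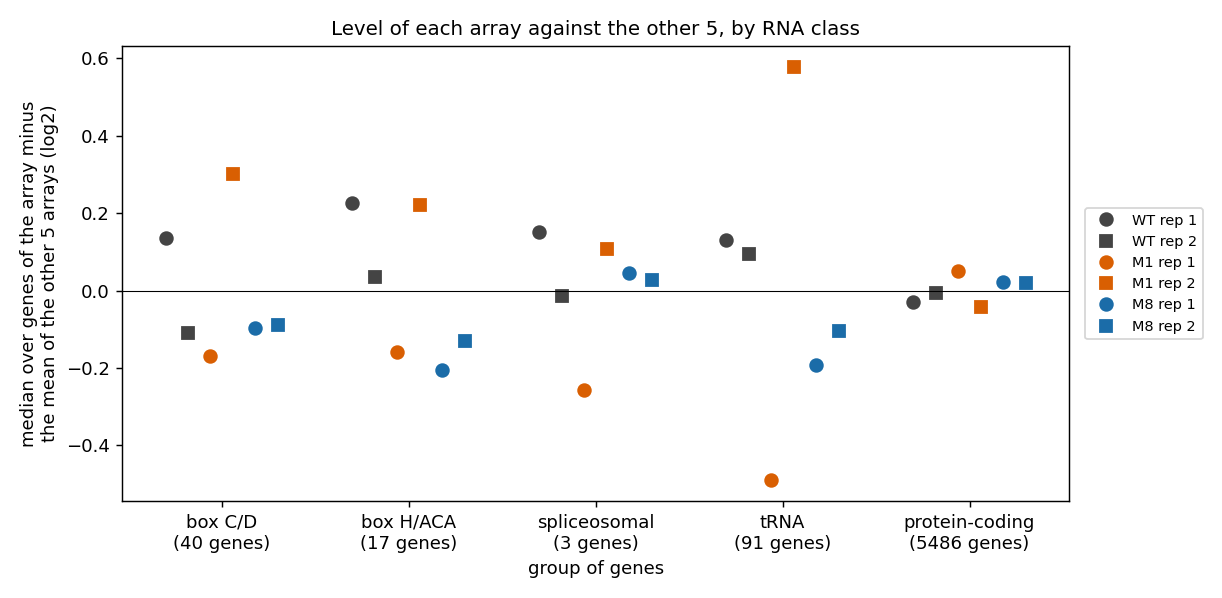
Median over the genes of a class of each array's log2 level minus the mean of the other 5 arrays, for box C/D, box H/ACA, spliceosomal, tRNA and protein-coding genes; circles are replicate 1 and squares replicate 2. For tRNA genes M1 replicate 2 stands at 0.58 and M1 replicate 1 at -0.49, for box C/D genes at 0.30 and -0.17, and all arrays lie near 0 for protein-coding genes.

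In M8, most small RNA genes had lower signals than in WT by small amounts, and every measured box H/ACA gene did. The difference was below 0 for 47 of 60 members, against 43.0% of all genes, and the median over the members was -0.14 against 0.029 over all genes. Both M8 arrays lay below both WT arrays for 25 members and above them for 3, where 19.1% and 29.0% of all genes did so. No single gene passed the test: 0 members were called by limma at a Benjamini-Hochberg adjusted p under 0.05 over 5656 genes (0.0% of all genes were called). At an unadjusted p under 0.05, 5 members were lower (2.32% of all genes) and 0 higher (4.74%). The tRNA genes showed the same direction, with 80 of 91 lower, a median of -0.23 and 67 with both M8 arrays below WT. The 4 rRNA genes went the other way, with 3 higher, a median of 0.15 and 0 with both M8 arrays below WT.

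Box H/ACA genes had a median of -0.23 in M8, and the 17 differences ran from -0.50 to -0.11. For 12 of these 17 genes both M8 arrays lay below both WT arrays, as for 19.1% of all genes. SNR46, a pseudouridine guide for the large subunit rRNA, had levels of 5.61 and 5.36 in WT, 4.59 and 5.42 in M1 and 4.87 and 5.10 in M8. Its M8 arrays lay below WT, while an M1 array overlapped WT, and the M8 difference was -0.50 (SE 0.25, limma adjusted p = 0.754). SNR8, also a guide for the large subunit rRNA, had levels of 8.53 and 8.38 in WT, 7.84 and 8.31 in M1 and 8.03 and 8.09 in M8. All 4 mutant arrays of SNR8 lay below both WT arrays, and the differences were -0.40 in M8 and -0.39 in M1 (SE 0.16 each, limma adjusted p = 0.684 and 0.575).

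SNR5, another guide for the large subunit rRNA, had levels of 7.48 and 7.42 in WT, 7.14 and 7.46 in M1 and 7.05 and 7.08 in M8. The M8 arrays of SNR5 lay close to each other and below WT, with a difference of -0.38 (SE 0.13, limma adjusted p = 0.655). SNR31, a guide for the small subunit rRNA, had levels of 4.03 and 3.94 in WT, 3.81 and 3.75 in M1 and 3.70 and 3.67 in M8, so its 3 groups did not overlap. It is one of the 8 dim members, and its M8 difference was -0.30 (SE 0.11, limma adjusted p = 0.660). SNR9 had a difference of -0.28, SNR33 of -0.27 and SNR34 of -0.26, each with both M8 arrays below WT. The smallest differences were those of SNR43 (-0.11), SNR44 (-0.11) and SNR189 (-0.13).

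Box C/D genes were less uniform in M8, with 28 of 40 below WT, a median of -0.13 and differences from -0.89 to 0.17. Both M8 arrays lay below WT for 12 and above WT for 3 of the 40, where 19.1% and 29.0% of all genes did so. SNR68, a methylation guide for the large subunit rRNA, had the largest difference of all members. Its levels were 5.68 and 5.90 in WT, 4.88 and 5.97 in M1 and 4.90 and 4.89 in M8. The M8 arrays and M1 replicate 1 were alike and low, while M1 replicate 2 was at the WT level. The M8 difference was -0.89 (SE 0.30), which is 1.86-fold lower, with a limma adjusted p = 0.653. With only the WT and M8 arrays fitted, the same difference had an SE of 0.10 and a limma adjusted p = 0.0259. Leaving out either M1 array gives this same result, since a lone M1 array adds nothing to the spread. These fits are therefore not separate checks. In this fit 0.124% of all genes were called lower. SNR68 was also called with array weights, where 0.265% of all genes were called lower. The weights were equal within each group, at 1.137 in WT, 0.3996 in M1 and 2.201 in M8. They therefore reflected the spread between the duplicates of a group, not the quality of single arrays.

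The other box C/D genes with low M8 arrays had smaller differences. SNR48, a guide for the large subunit rRNA, had levels of 6.71 and 6.34 in WT, 5.75 and 6.79 in M1 and 5.99 and 6.30 in M8, a difference of -0.38 (SE 0.31) in M8. SNR41, a guide for the small subunit rRNA, had a difference of -0.30 and is described with its cluster. The 3 box C/D genes with both M8 arrays above WT were SNR54, SNR69 and SNR39, at 0.17, 0.16 and 0.16. SNR69 had levels of 7.77 and 7.62 in WT, 7.51 and 7.91 in M1 and 7.93 and 7.78 in M8, so M8 cleared WT narrowly. None of these differences passed the limma test.

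The count in M8 depended on the WT array with the higher small RNA signals. Without WT replicate 1, 38 of 60 members were below WT with a median of -0.057, and box C/D genes were evenly split, with 20 of 40 below and a median of -0.010. Box H/ACA genes kept 16 of 17 below WT without WT replicate 1, with a median of -0.14, and had between 16 and 17 below when any other array was left out. By arrangement, 34 of the 39 members with a gene of their own were below WT in M8 (median -0.18), as were 11 of 17 members of shared transcripts (median -0.082) and 2 of 4 intronic members. Among members with a gene of their own, the median was -0.23 for 16 box H/ACA genes and -0.18 for 20 box C/D genes.

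**Figure D2:**
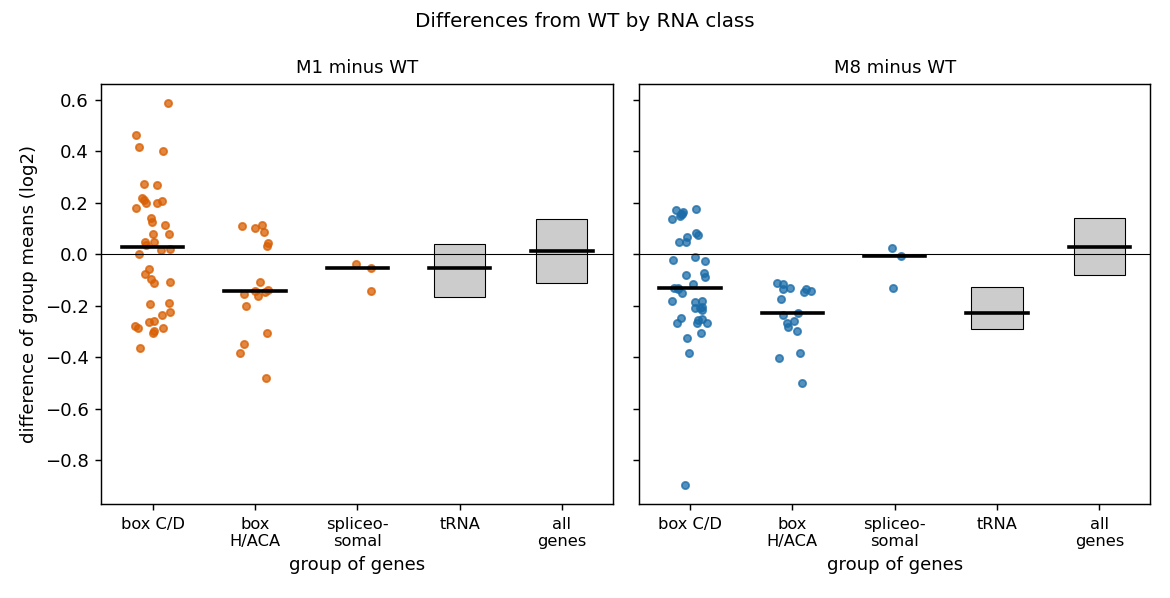
Differences of group means from WT (log2) for M1 (left) and M8 (right); each point is a gene, black lines are medians and grey boxes span the quartiles of tRNA genes and of all genes. In M8 all 17 box H/ACA points lie below 0 with a median of -0.23, and the tRNA genes have a median of -0.23.

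In M1 the same genes showed no common direction, and the 2 arrays of M1 gave opposite answers. The difference from WT was below 0 for 31 of 60 members (47.3% of all genes), with a median of -0.046 against 0.012 over all genes. M1 replicate 1 alone gave a median of -0.21 with 48 members below WT, and M1 replicate 2 alone gave 0.19 with 16 below. Over tRNA genes these medians were -0.49 and 0.34. Both M1 arrays lay above WT for 7 members (22.0% of all genes) and below WT for 11 (13.5%). With limma 0 members were called (0.0% of all genes), and the smallest adjusted p was 0.442, for SNR76. At an unadjusted p under 0.05, 4 members were higher (5.11% of all genes) and 4 lower (3.47%).

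By class, box H/ACA genes had a median of -0.14 in M1 with 11 of 17 below WT, and box C/D genes had 0.029 with 17 of 40 below. Both M1 arrays lay below WT for 5 box H/ACA genes and above WT for 0, where 13.5% and 22.0% of all genes did so. In M1 replicate 1 all 17 box H/ACA genes were below WT, and in M1 replicate 2 there were 8. The H/ACA genes with both M1 arrays below WT were SNR8, SNR44, SNR31, SNR33 and SNR43. Box C/D genes with both M1 arrays below WT included SNR71 at -0.29 and SNR4 at -0.26. SNR71, a guide for the large subunit rRNA, had levels of 6.22 and 6.39 in WT, 5.91 and 6.13 in M1 and 5.97 and 6.37 in M8.

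The box C/D members with both M1 arrays above WT were SNR54, SNR57, SNR58 and 4 genes of the SNR72 to SNR78 cluster. SNR54, an intron-encoded guide for the small subunit rRNA, had levels of 4.77 and 4.61 in WT, 5.09 and 5.13 in M1 and 4.94 and 4.79 in M8. All 4 mutant arrays lay above both WT arrays, and the M1 difference was 0.42 (SE 0.12, limma adjusted p = 0.442). SNR58, a guide for the large subunit rRNA, had levels of 5.04 and 4.93 in WT and 5.08 and 5.30 in M1, a difference of 0.21. Leaving out M1 replicate 2 brought 3 members below the threshold in the M1 comparison, all lower than WT: SNR68 at -0.91, SNR45 at -0.75 and SNR46 at -0.89 (limma adjusted p = 0.0295, 0.0307 and 0.0416, with 0.654% of all genes called lower). Leaving out M1 replicate 1 instead brought 2, both higher: SNR75 at 0.90 and SNR73 at 0.57 (limma adjusted p = 0.0269 and 0.0493, with 2.42% of all genes called higher). In both fits the single M1 array is assumed to vary as the other groups do.

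**Figure D3:**
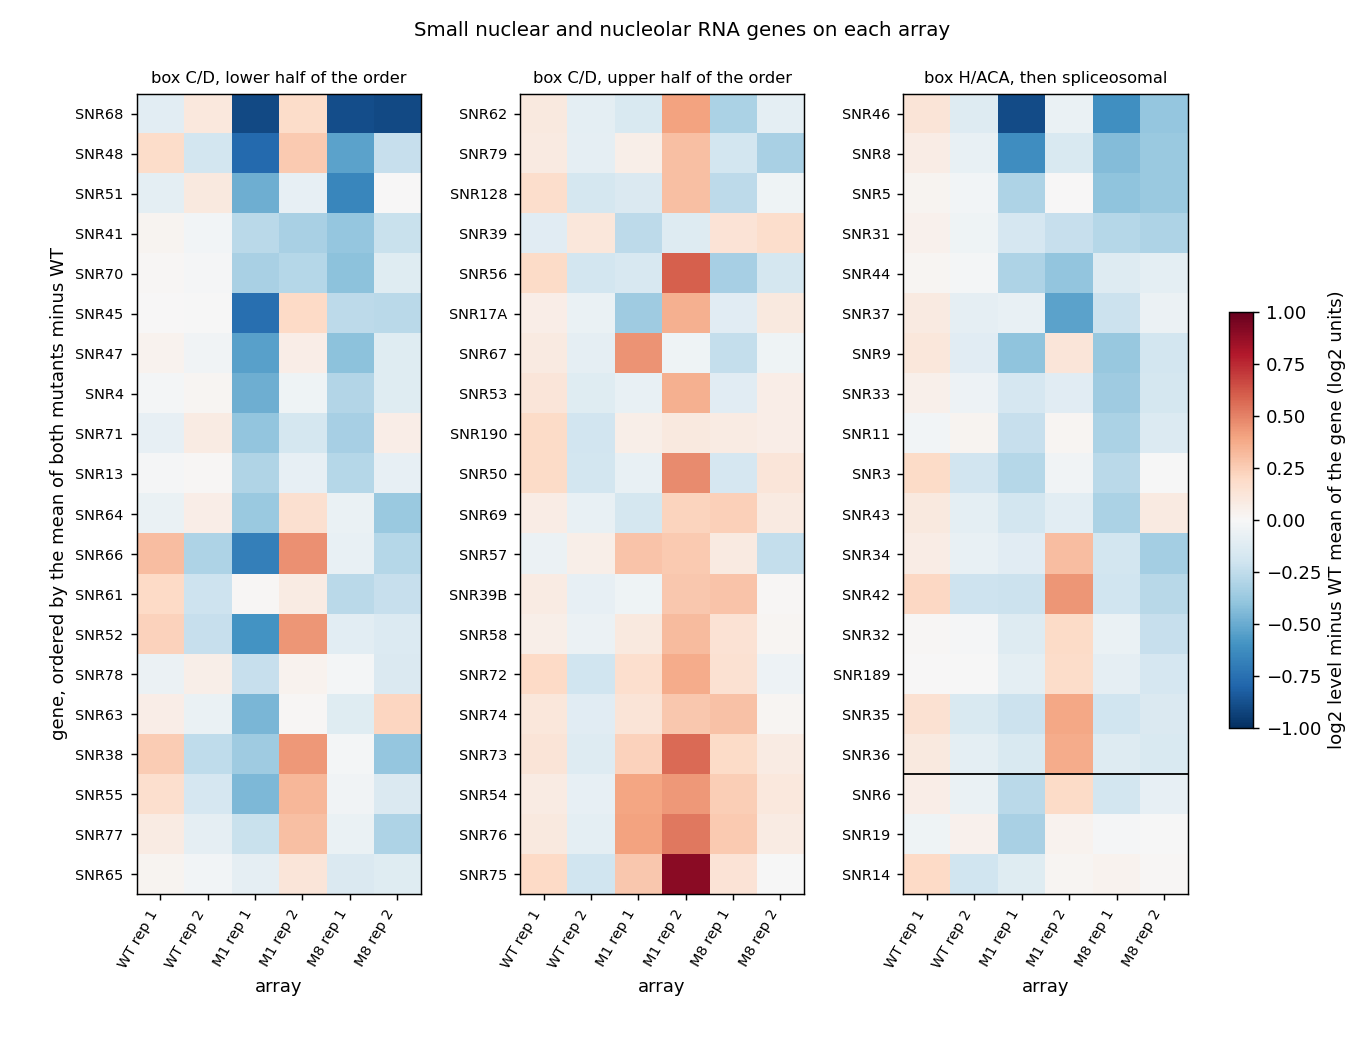
Log2 level of each of the 60 members on each array minus the gene's WT mean, with genes ordered within class by the mean of both mutants minus WT; blue is below and red above the WT mean. M1 replicate 1 is mostly blue and M1 replicate 2 mostly red, and the M8 columns of the box H/ACA genes are almost all blue.

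Some members share a transcript with their neighbours. In the R64 gene table, 17 members lie in 5 clusters of 2 to 7 genes, each on 1 chromosome and 1 strand with 0 other genes between them. Such clusters are transcribed as 1 precursor and cut apart by the RNase III enzyme Rnt1 and by trimming nucleases. Genes of a cluster are thus not independent of each other.

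The cluster of SNR41, SNR70 and SNR51, which guide methylation of the small subunit rRNA and, for SNR51, also of the large one, was lower than WT in both mutants. SNR41 had levels of 7.72 and 7.68 in WT, 7.43 and 7.38 in M1 and 7.32 and 7.48 in M8. SNR70 had 8.81 and 8.78 in WT, 8.47 and 8.51 in M1 and 8.39 and 8.67 in M8. For SNR41 and SNR70 all 4 mutant arrays lay below both WT arrays, and their M1 duplicates differed by 0.047 and 0.036, far less than for most members. SNR51 had 8.02 and 8.21 in WT, 7.63 and 8.03 in M1 and 7.46 and 8.12 in M8, so its groups overlapped.

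The differences from WT in M1 were -0.30, -0.31 and -0.29 for SNR41, SNR70 and SNR51, and those in M8 were -0.30, -0.27 and -0.33, with both comparisons resting on the same WT arrays. The mean of both mutants minus WT had a median of -0.30 over the 3 genes. None was called, and the smallest limma adjusted p was 0.486, for SNR41. The M8 difference of this cluster rested more on M8 replicate 1, whose median alone was -0.41, than on M8 replicate 2, with -0.12.

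The cluster of SNR72 to SNR78 stood on the other side of WT in M1. SNR75, a guide for the large subunit rRNA, had levels of 9.09 and 8.68 in WT, 9.16 and 9.79 in M1 and 9.02 and 8.88 in M8. SNR76, also a guide for the large subunit rRNA, had 8.27 and 8.07 in WT, 8.57 and 8.69 in M1 and 8.43 and 8.25 in M8. SNR73 had 7.99 and 7.74 in WT, 8.10 and 8.44 in M1 and 8.06 and 7.95 in M8. These 3 genes and SNR74 had both M1 arrays above WT, as 22.0% of all genes did, narrowly so for SNR74 and SNR75.

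The M1 differences in this cluster were 0.59 for SNR75, 0.46 for SNR76, 0.40 for SNR73, 0.27 for SNR72, 0.20 for SNR74, 0.046 for SNR77 and -0.098 for SNR78, which is a dim member. The median over the 7 genes was 0.27 in M1 and 0.066 in M8. It was 0.081 without WT replicate 2 and 0.47 without WT replicate 1, and 0.17 and 0.37 with M1 replicate 1 or M1 replicate 2 alone. At an unadjusted p under 0.05, 3 of the 7 were higher in M1 (5.11% of all genes), and none was called by limma. In the 53 members outside this cluster the M1 median was -0.079 and 30 were below WT.

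The remaining clusters gave mixed values. In the cluster of SNR57, SNR55 and SNR61 the M1 differences were 0.27, -0.056 and 0.048 and the M8 differences -0.072, -0.089 and -0.25. SNR57, a guide for the small subunit rRNA, had levels of 4.40 and 4.52 in WT, 4.75 and 4.72 in M1 and 4.55 and 4.23 in M8, so M1 stood above both other groups. The pair of SNR67 and SNR53 stood at 0.21 and 0.14 relative to WT in M1, and at -0.13 and -0.024 in M8. For SNR67, a guide for the large subunit rRNA, M1 replicate 1 was the higher M1 array, at 10.59 against 10.10, unlike for most members.

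**Figure D4:**
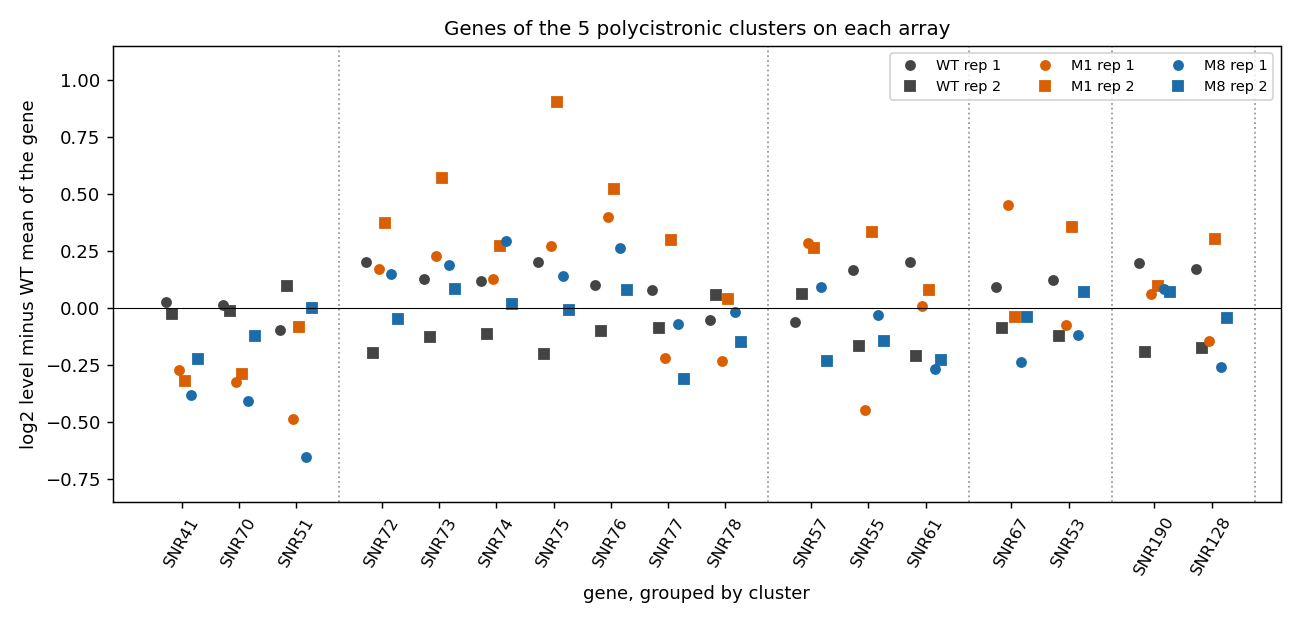
Log2 level of each gene of the 5 clusters on each array minus the gene's WT mean; colours mark the groups, circles replicate 1 and squares replicate 2, and dotted lines part the clusters. SNR41 and SNR70 have all 4 mutant points below both WT points, and SNR73 to SNR76 have both M1 points above WT.

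RNAs that take part in cutting the ribosomal precursor had groups that overlapped. SNR17A, one of the 2 genes of the U3 RNA, had levels of 5.62 and 5.48 in WT, 5.20 and 5.91 in M1 and 5.43 and 5.65 in M8. Its differences from WT were 0.0022 in M1 and -0.0093 in M8 (SE 0.22), and the M1 arrays lay on either side of WT. SNR17A has a near-identical copy, SNR17B, and in the gene table it partly overlaps IRC13 on the same strand, so the probe set may read more than 1 transcript. SNR128, the U14 RNA, had levels of 9.41 and 9.06 in WT, 9.09 and 9.54 in M1 and 8.98 and 9.19 in M8, with differences of 0.080 in M1 and -0.15 in M8 (SE 0.19). SNR190, which shares its transcript, is a dim member and had 0.077 and 0.076.

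SNR4 and SNR45 are box C/D RNAs that guide acetylation of the small subunit rRNA by Kre33 instead of methylation. SNR4 had levels of 8.38 and 8.42 in WT, 7.91 and 8.36 in M1 and 8.11 and 8.28 in M8, so all 4 mutant arrays lay below WT, M1 replicate 2 by a small margin. Its differences were -0.26 in M1 and -0.21 in M8 (SE 0.16, limma adjusted p = 0.665 and 0.868). SNR45 had levels of 5.39 and 5.37 in WT, 4.63 and 5.58 in M1 and 5.12 and 5.11 in M8. Both M8 arrays of SNR45 lay below WT, at -0.27, and the M1 arrays lay on either side.

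The 3 measured spliceosomal RNAs had small differences from WT. SNR19, the U1 RNA and the longest member, had levels of 5.47 and 5.56 in WT, 5.19 and 5.55 in M1 and 5.50 and 5.51 in M8. SNR14, the U4 RNA, had 5.75 and 5.35 in WT, 5.42 and 5.56 in M1 and 5.58 and 5.56 in M8. SNR6, the U6 RNA, had 5.18 and 5.04 in WT, 4.84 and 5.30 in M1 and 4.93 and 5.03 in M8. The groups overlapped for SNR19 and SNR14, and both M8 arrays of SNR6 lay just below WT.

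Differences in M8 were -0.0081 for SNR19, 0.022 for SNR14 and -0.13 for SNR6, and those in M1 were -0.14, -0.055 and -0.038, each within its SE of 0.14 to 0.16 or close to it. SNR52, a methylation guide made like SNR6 by RNA polymerase III, had 5.51 and 5.05 in WT, 4.68 and 5.72 in M1 and 5.18 and 5.15 in M8. Its M1 arrays lay outside all others on both sides, and its differences were -0.079 in M1 and -0.12 in M8 (SE 0.31). SNR7-L, the long form of the U5 RNA, falls outside the rule and had 0.0064 for M1 and -0.045 for M8. Its probe set was dim, with levels from 3.89 to 4.02, below the 25th percentile of all probe sets (4.46).

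Intron-encoded snoRNAs leave the spliced-out intron of a host message, and a probe set in an intron also matches the unspliced host RNA. Of 8 such genes in the gene table, 4 are among the members. SNR44, an H/ACA guide in an intron of the ribosomal protein gene RPS22B, had levels of 7.93 and 7.88 in WT, 7.60 and 7.51 in M1 and 7.77 and 7.80 in M8. All 4 mutant arrays lay below WT and M1 lay lowest, with differences of -0.35 in M1 (SE 0.11, limma adjusted p = 0.480) and -0.11 in M8. RPS22B itself differed by -0.15 in M1 and -0.29 in M8 (SE 0.12 each), and its M1 arrays overlapped WT. By these means the order of the mutants was the opposite one in the host, though M8 minus M1 was only -0.14 (SE 0.12) there.

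SNR39, a guide in an intron of the ribosomal protein gene RPL7A, had levels of 5.87 and 6.10 in WT, 5.72 and 5.86 in M1 and 6.12 and 6.16 in M8. M1 lay narrowly below and M8 narrowly above WT, at -0.19 and 0.16. RPL7A differed by -0.28 in M1 and 0.43 in M8, with M1 levels of 12.85 and 11.86 beside WT levels of 12.30 and 12.97, and both M8 levels above these, at 13.09 and 13.05. RPL7B, a close paralog of RPL7A that hosts SNR59, had -0.33 and 0.47, and the probe sets of this pair may read both messages. SNR54 lay in IMD4, an inosine monophosphate dehydrogenase gene, and differed by 0.42 and 0.17 where IMD4 differed by 0.11 and -0.067.

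SNR38, a guide in an intron of the translation elongation factor gene TEF4, had levels of 7.11 and 6.61 in WT, 6.50 and 7.29 in M1 and 6.84 and 6.47 in M8, and its groups overlapped. TEF4 had all 4 mutant arrays above WT, at 0.23 in M1 and 0.25 in M8. Host genes of intronic snoRNAs not analysed here gave 0.032 and 0.14 for EFB1, -0.012 and 0.0017 for ASC1 and 0.24 and 0.14 for NOG2. No host gene was called by limma, and at an unadjusted p under 0.05 RPS22B was the 1 lower in M8.

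**Figure D5:**
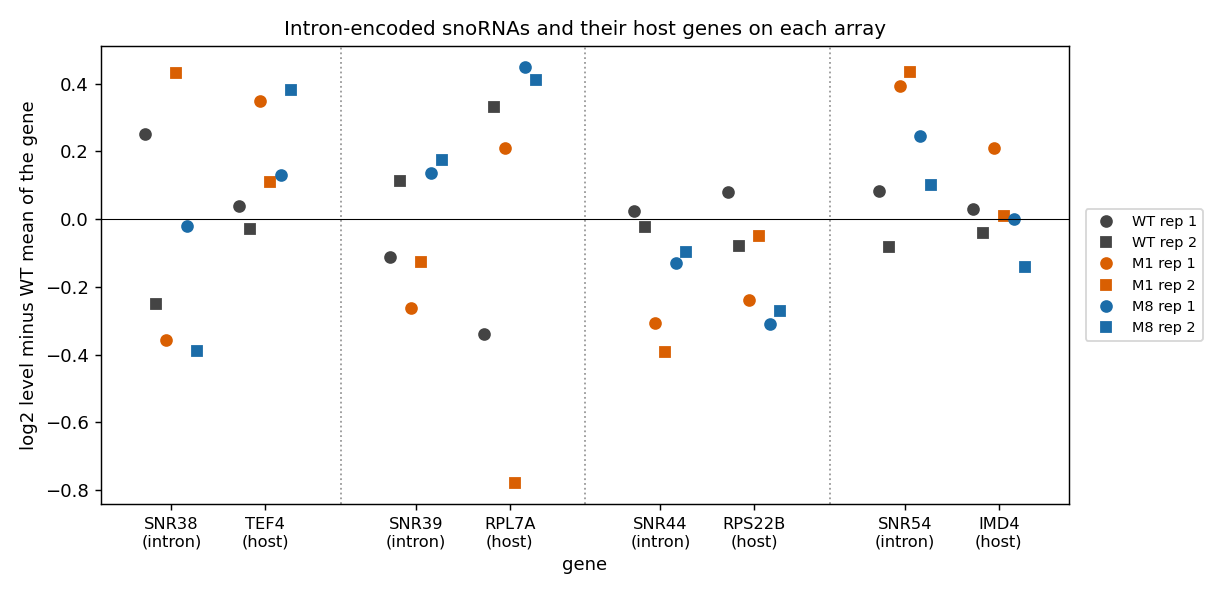
Log2 level minus the gene's WT mean on each array for the 4 measured intron-encoded snoRNAs and their host genes; colours mark the groups, circles replicate 1 and squares replicate 2. SNR44 is lowest in M1 while RPS22B is lowest in M8, and M1 replicate 2 of RPL7A stands 0.78 below its WT mean.

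Set directly against each other, M8 had lower signals than M1 for 44 of 60 members (47.6% of all genes), with a median of -0.12 against 0.0093 over all genes. This was not particular to the members, since 75 of 91 tRNA genes were also lower, with a median of -0.14, as were 3 of 4 rRNA genes. Both M8 arrays lay below both M1 arrays for 14 members (18.4% of all genes) and above them for 2 (19.5%), SNR39 and SNR44. With limma 0 members were called (0.0% of all genes), the smallest adjusted p was 0.722, and at an unadjusted p under 0.05 there were 1 higher (4.12%) and 3 lower (2.32%). The largest differences with no overlap were those of SNR75 (-0.52), SNR56 (-0.47), SNR79 (-0.44), SNR34 (-0.36) and SNR57 (-0.35) downwards, and of SNR39 (0.35) and SNR44 (0.24) upwards.

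SNR56, a guide for the small subunit rRNA, had levels of 6.90 and 7.65 in M1 and 6.72 and 6.88 in M8, with WT at 7.24 and 6.87. SNR34, an H/ACA guide, had 4.77 and 5.20 in M1 and 4.70 and 4.55 in M8. SNR79 had 3.40 and 3.64 in M1 and 3.15 and 3.02 in M8, and is a dim member. The comparison depended on which M1 array was used: without M1 replicate 1, 10 members were called, all lower in M8 (limma, 4.26% of all genes called lower). The 10 were SNR68, SNR56, SNR75, SNR34, SNR62, SNR79, SNR45, SNR36, SNR42 and SNR35, with differences from -1.08 for SNR68 to -0.46 for SNR45. Without M1 replicate 2, 0 were called and the median over the members was 0.045.

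For the mean of both mutants against WT, 46 of 60 members were below 0 (44.7% of all genes), with a median of -0.077 against 0.020 over all genes. The direction was shared by 81 of 91 tRNA genes, with a median of -0.12, while 3 of 4 rRNA genes were above 0. For 1 of the 91 tRNA genes all 4 mutant arrays lay below both WT arrays. All 4 mutant arrays lay below both WT arrays for 8 members (6.86% of all genes) and above them for 1 (11.9%), SNR54. The 8 were SNR41, SNR70, SNR44, SNR8, SNR31, SNR33, SNR4 and SNR13. Limma called 0 members (0.0707% of all genes), and at an unadjusted p under 0.05 there were 2 higher (5.25%) and 6 lower (2.74%). All 17 box H/ACA genes were below 0 with a median of -0.17, and 13 of 17 remained below without WT replicate 1, when the median over all members was 0.0056. Without M1 replicate 2, 4 members were called lower, SNR68, SNR45, SNR46 and SNR8 (limma, with 1.03% of all genes called lower).

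SNR13, a guide for the large subunit rRNA and one of the brightest probe sets, had levels of 9.90 and 9.93 in WT, 9.62 and 9.84 in M1 and 9.63 and 9.84 in M8. Its duplicates differed alike in both mutants and the WT arrays were close together. The differences were -0.19 in M1 and -0.18 in M8 (SE 0.13). SNR33, an H/ACA guide for the large subunit rRNA, had 7.26 and 7.15 in WT, 7.03 and 7.09 in M1 and 6.85 and 7.03 in M8.

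Messages of proteins that bind, assemble or process these RNAs, or that bind snoRNA promoters, gave 0 calls by limma against WT. At an unadjusted p under 0.05, 4 of the 79 list genes were lower in M1 (3.47% of all genes), LRP1, SMD1, LSM2 and NAM8, and 0 higher (5.11%). In M8, LSM2 was the 1 lower (2.32% of all genes) and NAB3 the 1 higher (4.74%). The core proteins of box H/ACA particles had both M8 arrays below WT for each of the 3 measured (19.1% of all genes), with differences of -0.40 for GAR1, -0.26 for NHP2 and -0.11 for CBF5, the pseudouridine synthase. In M1 these genes had -0.035, -0.10 and -0.014. GAR1 had levels of 11.54 and 11.54 in WT, 11.25 and 11.76 in M1 and 11.23 and 11.04 in M8 (M8 limma adjusted p = 0.707). The messages of these 3 proteins were lower in M1 replicate 1 than in M1 replicate 2, as for 39.44% of all genes. The same held for 14 of 17 H/ACA RNAs, 37 of 40 box C/D RNAs and 90 of 91 tRNA genes, so it was not particular to box H/ACA. The 4 core proteins of box C/D particles, NOP1, NOP56, NOP58 and SNU13, had a median of 0.017 in M8, with SNU13 the 1 with both M8 arrays below WT. These 4 had a median of 0.025 in M1. NOP56 and NOP58 were lower in M1 replicate 1 than in M1 replicate 2 (10.02 against 10.73 and 13.22 against 13.71). NOP1 and SNU13 were higher there (10.83 against 9.73 and 12.80 against 12.62).

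Sm proteins form a ring on most spliceosomal RNAs, and Lsm proteins form rings on U6 and on messages under decay. In M8, 12 of their 14 genes were below WT (43.0% of all genes) and 10 had both M8 arrays below both WT arrays (19.1%), with a median of -0.17. LSM2 had levels of 8.41 and 8.40 in WT, 8.08 and 8.21 in M1 and 8.01 and 8.05 in M8, so its 3 groups did not overlap, and its M8 difference was -0.37 (SE 0.11, limma adjusted p = 0.582). SMD1 had 6.37 and 6.59 in WT, 5.89 and 6.05 in M1 and 6.14 and 6.37 in M8, with differences of -0.51 in M1 and -0.22 in M8. Of 16 other proteins of the spliceosomal particles, 8 were below WT in M8 with a median of 0.0030, and NAM8, a protein of the U1 particle, had -0.34 in M1.

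Among 9 assembly factors, 4 were below WT in M8 (43.0% of all genes) and 2 in M1 (47.3%), with medians of 0.047 and 0.068. SHQ1, a chaperone of Cbf5, differed by 0.28 in M1 and -0.15 in M8, and RSA1, which helps to assemble box C/D particles, by 0.094 and -0.26. Of 16 genes for the ends of these RNAs, 10 were below WT in M8 (43.0% of all genes) and 9 in M1 (47.3%). NAB3, which with Nrd1 and Sen1 ends snoRNA transcription, had levels of 6.34 and 6.58 in WT, 6.66 and 6.09 in M1 and 6.88 and 7.01 in M8. Its M8 arrays lay above all others, with a difference of 0.48 (SE 0.19, limma adjusted p = 0.671). LRP1, a partner of the nuclear exosome subunit Rrp6, had both M1 arrays below WT, at -0.48, and SEN1 had -0.35 and -0.33 with wide duplicates in M1. RNT1, the nuclease that cuts the clusters, differed by 0.26 in M1 and 0.0012 in M8.

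The 10 core exosome genes had medians of -0.16 in M1 and -0.086 in M8, with RRP40 at -0.31 and 0.075. The 4 proteins of the U3 particle had medians of 0.00016 and 0.049, with IMP3 at -0.33 and 0.27. Of the factors that bind snoRNA promoters, TBF1 had both M1 arrays below WT, at -0.34, and differed by -0.084 in M8. REB1 differed by -0.22 and 0.28 and RAP1 by 0.16 and 0.11. RPR1, the RNA of RNase P, differed by -0.047 and -0.14, and TLC1, the telomerase RNA, by 0.26 and 0.0022 on its brighter probe set and by 0.69 and 0.37 on its other one.

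The remaining members had small differences as well. SNR47, a box C/D guide, had levels of 4.67 and 4.61 in WT, 4.10 and 4.71 in M1 and 4.23 and 4.52 in M8, with both M8 arrays below WT and a difference of -0.27. SNR11, an H/ACA guide for the large subunit rRNA, had 7.61 and 7.67 in WT, 7.41 and 7.65 in M1 and 7.32 and 7.50 in M8, and its M8 difference was -0.23. SNR37, another guide for the large subunit rRNA, had 6.60 and 6.42 in WT, 6.43 and 5.98 in M1 and 6.30 and 6.45 in M8. SNR37 was among the few members with the lower value in M1 replicate 2, and its groups overlapped at differences of -0.30 in M1 and -0.14 in M8.

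Both M8 arrays also lay below WT for SNR62, SNR65, SNR36, SNR189 and SNR32, with differences from -0.21 for SNR62 to -0.13 for SNR189. The groups of M8 and WT overlapped for SNR42 (-0.24), SNR64 (-0.22), SNR35 (-0.17), SNR3 (-0.14), SNR55 (-0.089), SNR50 (-0.026) and SNR63 (0.047). SNR63 was one of 12 box C/D members with a difference above 0 in M8, and it had 6.60 and 6.46 in WT, 6.07 and 6.54 in M1 and 6.41 and 6.74 in M8. In M1 the groups overlapped for all of SNR42, SNR64, SNR35, SNR3, SNR55, SNR50 and SNR63.

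Of the 60 members, 2 have a second probe set. For SNR39B the brighter probe set gave differences of 0.11 in M1 and 0.15 in M8, while the other gave -0.12 and -0.38, so the sign for SNR39B was not settled. For SNR62 they were 0.13 and -0.21 on the brighter probe set and -0.012 and -0.073 on the other.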

How the data were processed

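Total RNA of 6 yeast samples, 2 per group, was hybridised to one-colour Affymetrix arrays. Each probe set has a deposited log2 level; the tools listed in the submitters' processing notes are RMA and oligo, with neither version nor settings. The table held 9275 probe sets with array medians between 6.48 and 6.52, so a shift of all RNAs together would not be seen. RMA gives no detection call, and the number of arrays limits the precision.

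Probe sets with 1 gene (6504) were kept, with the highest mean per gene, leaving 5656 genes. Group means were fitted to all 6 arrays and all genes with limma 3.58.1 (lmFit, eBayes) in R 4.3.3, with 3 residual degrees of freedom, two-sided p-values and Benjamini-Hochberg adjustment; adjusted p under 0.05 was called. The calculation was tested on simulated data, with planted differences larger than any member had with all 6 arrays and an equal spread in all groups. That test does not cover differences as small as those of the members, or the wider M1 duplicates. The members and gene lists were chosen with earlier results of these data known, so lists have counts and medians only. Named genes were the spliceosomal, U3 and U14 genes, those with the largest differences without overlap between groups, the brightest and dimmest, those with the widest M1 duplicates, members called with an array left out, host genes and up to 3 genes per protein list; SNR33, SNR36, SNR42, SNR35 and others named as complete counts, cluster members or remaining members were added after their values were seen. Alternatives covered scaling, filters, probe set choice, array weights, a replicate block and leaving out each array. No member or promoter sequence was used here, and the motif search was not run.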

Additional observations from a re-analysis of the deposited data

Results flagged for a closer look

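For 3 members the M1 arrays and the M8 arrays lay on opposite sides of the WT mean. Only for SNR39 did both mutants also clear both WT arrays, and there by narrow margins. SNR39 had both M1 arrays below and both M8 arrays above both WT arrays, and M8 minus M1 was 0.35 (SE 0.13, limma adjusted p = 0.722). SNR79 had M8 minus M1 of -0.44 (SE 0.14, limma adjusted p = 0.722), with each M1 array above and each M8 array below the WT mean. Its M1 arrays overlapped WT, with M1 replicate 1 at 3.40 and WT replicate 1 at 3.43. SNR61 had M8 minus M1 of -0.30 (SE 0.15, limma adjusted p = 0.722), with M1 arrays at 10.64 and 10.71 and M8 arrays at 10.36 and 10.40. Both M1 arrays of SNR61 lay between the WT arrays, at 10.83 and 10.42, so M1 was not set apart from WT. None of the 3 differences passed the test over 5656 genes.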

How the results depend on the processing

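Of 16 alternative settings, those that left out an M1 array moved the comparisons with M1 most, while the M8 median and counts against WT moved most without WT replicate 1, to 38 of 60 members below WT and a median of -0.057. Members called ranged from 0 to 3 in M1 against WT, 0 to 1 in M8 against WT, 0 to 10 in M8 against M1 and 0 to 4 for the mean of the mutants when an array was left out. The median over the members ranged from -0.21 to 0.19 in M1 against WT and from -0.33 to 0.045 in M8 against M1, and members below WT in M1 from 16 to 48. With M8 against WT, SNR68 was the 1 member called with array weights and with only the groups compared. The latter gives the same result as leaving out an M1 array. Under the other settings that kept all arrays 0 members were called. SNR45, M8 minus M1, turned from 0.011 to -0.46 without M1 replicate 1 and was 0.49 without M1 replicate 2. Under median centring and quantile normalization the M8 median was -0.16 and -0.15, and 47 members stayed below WT in number. The filter on dim genes, cut at the 25th percentile over the 5656 genes, left 30 members. It set aside more than the 8 called dim above, which lay below the 25th percentile of all probe sets. SNR68, SNR46, SNR45, SNR54, SNR57 and SNR34 were among those set aside. Counts over all genes ranged further: for M8 against WT 56 genes were called with array weights and 23 with only the groups compared, against 0. With a replicate block 0 members were called in every comparison, and 0 genes for the mean of the mutants, against 4. Differences between duplicates correlated at -0.31 (WT and M1), 0.30 (WT and M8) and -0.11 (M1 and M8) over genes, so the replicate numbers were not taken to pair the arrays. The counts of members below WT and of the clusters were added after seeing the data. The cause of these shifts was not tested.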
